A study of Mus musculus with 479 samples.

Results

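The genes described here are 37 type I interferon stimulated genes chosen by name, with earlier results of these data known. Their counts beside the shares of all genes are therefore descriptions. All 37 were found among the 24475 genes of the deposited tables. They were followed in messenger RNA of whole heart, kidney, liver and lung from a Dchs1 line and a Fat4 line of mice. In each line, heterozygous mice (Het, written Dchs1+/- or Fat4+/- in the labels, made with VelociGene technology) were set against wild-type littermates (WT), all on a C57BL/6NTac background. There were 16 groups of 30 libraries, except 29 for Dchs1 liver Het. The labels give no age, sex, litter or batch. Whether each library of a group stands for its own animal is not said, so the p-values measure the spread between these libraries, which may be technical. Dchs1 and Fat4 are large protocadherins that bind each other on neighbouring cells.

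Type I interferons are cytokines released when a cell senses foreign or misplaced nucleic acid. They bind a receptor made of Ifnar1 and Ifnar2, the kinases Jak1 and Tyk2 then act on factors that include Stat2, which joins Irf9 in a complex that binds the interferon-stimulated response element in promoters. The induced genes encode nucleic acid sensors, enzymes that degrade viral RNA, proteins that block translation, entry or budding, and members of the pathway itself, such as Irf7, Stat2 and Irf9. Tissues of healthy animals hold a low steady level of these transcripts.

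Promoter sequences were looked up for the response element because it is the shared regulatory feature of the group. The element was written as GAAANNGAAA and searched on both strands, overlapping matches included, in the RefSeq promoter table for GRCm38.p6 (250 bases before to 50 after each start). A promoter was listed for 27 of the 37 genes, and not for Usp18, Dhx58, Zbp1, Oas2, Mx1, Mx2, Parp9, Parp14, Rtp4 and Ifi27l2a. Of these 27 genes, 13 (48.1%) held a match, beside 1079 of 27025 genes (3.99%) in the whole table. The 13 were Isg15, Ifit1, Ifit3, Rsad2, Bst2, Oas1a, Oas3, Stat2, Ifi203, Ddx58, Ifih1, Eif2ak2 and Trim30a. Windows of 50 bases that lie upstream of the start are shown for 8 of them, written 5′ to 3′ on the strand of the gene, with the matched bases in capitals. A run that begins with TTTC is the element on the opposite strand. A match is a description of letters and no measure of binding.
Isg15, chr4:156200855-156200904, minus strand: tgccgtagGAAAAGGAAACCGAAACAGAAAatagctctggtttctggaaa
Ifit1, chr19:34640784-34640833, plus strand: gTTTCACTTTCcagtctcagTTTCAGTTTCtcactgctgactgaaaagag
Ifit3, chr19:34583387-34583436, plus strand: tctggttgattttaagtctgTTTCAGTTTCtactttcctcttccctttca
Rsad2, chr12:26456543-26456592, minus strand: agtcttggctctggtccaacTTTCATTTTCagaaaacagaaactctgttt
Bst2, chr8:71537567-71537616, minus strand: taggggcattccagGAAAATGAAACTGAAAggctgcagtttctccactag
Oas3, chr5:120777705-120777754, minus strand: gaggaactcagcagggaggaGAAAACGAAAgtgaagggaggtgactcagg
Stat2, chr10:128270256-128270305, plus strand: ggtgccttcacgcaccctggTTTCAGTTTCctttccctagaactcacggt
Ifi203, chr1:173942498-173942547, minus strand: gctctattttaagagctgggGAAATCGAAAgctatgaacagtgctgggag
In the Isg15 window 3 overlapping matches follow each other. Bst2 and Ifit1 hold 2 each in their windows, and the other windows 1.

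Libraries held 10720364 to 32282525 reads assigned to genes. The targeted gene was lower in its own line in every tissue, by log2 values of -1.10 to -1.24 for Dchs1 and -0.95 to -1.07 for Fat4, with every Het library below the WT median. The 4 marker genes of each labelled tissue summed to at least 18000 TPM (transcript abundance scaled for length and depth) in every library of heart, and to at most 499 TPM in any library of another tissue. The same sums separated kidney (19300 against 92.9), liver (38600 against 329) and lung (72600 against 904). Lung markers were not absent from every heart library. Their sum reached 904 TPM in Fat4 heart WT (median 0.418) and 346 in Het (median 0.395). In Dchs1 heart it reached 425 TPM in WT (median 0.401) and 259 in Het (median 0.639). The part of this in the heart values was not tested. In the Fat4 line, 1 WT library of heart held the highest value of 27 of 35 of the interferon genes tested within its group. A library of kidney WT held 23 of 36 such values, a library of lung WT 25 of 37, and a library of liver Het 21 of 37. In Dchs1 heart WT, 1 library held 19 of 35. At the low end, 1 library of Dchs1 liver WT held the lowest value of 27 of 37 genes, and 1 of Fat4 liver Het that of 20 of 37. Counts without these libraries stand beside the results they change.

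Interferon stimulated genes were lower in heterozygotes of both lines, most of all in the liver of the Dchs1 line. In that tissue all 37 genes fell, by a median of 0.68 on the log2 scale, while the median of all genes tested was -0.00413. Rtp4, a chaperone of receptors that is strongly induced by interferon, and Ifit1, which binds viral RNA caps, each fell by 1.35. The median of the 37 in Fat4 liver was -0.29. A gene is called lower or higher where the adjusted p of edgeR's quasi-likelihood test, Benjamini-Hochberg adjusted over all genes tested in that comparison, was under 0.05. Mx1 was too low to be tested in the hearts.

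In Dchs1 heart, 30 of 36 genes tested were lower and 1 was higher, where 24.1% of all genes tested were lower and 26.1% higher, and the median log2 difference was -0.28. In Dchs1 kidney 34 of 37 were lower and 0 higher (23.8% and 23.4% of all genes; by limma on TPM 1 was higher, Ifit2), with a median of -0.36. In Dchs1 liver the 37 lower genes stood beside 25.4% of all genes lower and 24.3% higher. In Dchs1 lung 31 of 37 were lower and 0 higher (10.4% and 9.6% of all genes), with a median of -0.36. Within the longest stretch of consecutive library numbers, the nearest stand-in for a batch, heart had 32 lower genes, kidney 30, liver 37 and lung 37. Of all genes, 24.1%, 21.9%, 26.5% and 16.3% were then lower. With the stretch as a covariate the interferon genes called lower were 33, 33, 37 and 35, beside 24.6%, 24.5%, 24.1% and 15.2% of all genes. Without the lowest WT library all 37 were lower in liver (26.3% of all genes). Without outlying libraries 36 were lower in lung (14.6%). In lung the share of all genes rose along with the count, from 10.4% in the main fit. By limma on log2(TPM + 1) fewer calls were kept: 24 of 31 in heart (5 not tested there), 23 of 34 in kidney (4 not tested), 35 of 37 in liver (2 not tested) and 26 of 31 in lung. In Dchs1 kidney the markers of kidney tissue moved with these genes: their sum had a median of 48400 TPM in WT (29100 to 57300) and 29300 TPM in Het (19300 to 42000), with Slc34a1, Lrp2 and Kap lower and Umod higher. Their part in the fall of the interferon genes was not tested.

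In Fat4 kidney 28 of 37 were lower and 0 higher (7.87% and 9.21% of all genes), with a median of -0.27. Without the highest WT library 27 were lower (7.04% of all genes). In Fat4 liver 22 of 37 were lower and 0 higher (3.51% and 3.64% of all genes), with a median of -0.29. Without the lowest Het library 20 were lower (2.96% of all genes), and without the highest Het library 24 (3.5%). In Fat4 heart 1 of 36, Ifi44, was lower (0.628% of all genes lower, 0.969% higher), with a median of -0.15. In Fat4 lung 1 of 37, Cmpk2, was lower (0.0259% lower, 0.11% higher), with a median of -0.17. At an unadjusted p under 0.05, 25 genes in Fat4 heart were lower and 0 higher, beside 8.67% and 8.55% of all genes tested, and 34 in Fat4 lung were lower and 0 higher, beside 4.74% and 5.88%. Without the single highest WT library no gene passed in either tissue: Ifi44 in heart then differed by -0.255 (adjusted p = 0.0657) and Cmpk2 in lung by -0.23 (adjusted p = 0.053), by edgeR's quasi-likelihood test. Both limma fits on TPM also left Ifi44 in heart and Cmpk2 in lung uncalled, and called Ifi27l2a in lung instead (-0.38, adjusted p = 0.0232 on log2(TPM + 1) and 0.0239 on log2(TPM + 0.1)). Within the longest stretch the counts were 2 in heart (0.71% of all genes lower), 30 in kidney (7.02%) and 23 in liver (4.67%). With the stretch as a covariate 27 were lower in kidney (5.39%). Lung has no such subset, since its libraries form 1 stretch.

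Across the 294 tests of a gene in a comparison, 184 were called lower and 1 higher, and 290 differences were below 0. The 4 above 0 were Oas3 in both hearts and Ifit2 in Dchs1 heart and kidney. Of all genes tested, 47.1% to 51% were below 0 and 0.0259% to 25.4% were called lower, depending on the comparison. The 294 tests are not independent, since the genes varied together among libraries of a group. Each of the 37 genes was called lower in at least 2 of the 8 comparisons. Ifi44 and Cmpk2 were called in 7, and 12 genes in 6. The fewest, 2 each, were Ifi35 and Lgals3bp. The share of all genes called that often was not counted. None of the 37 genes had ranges that failed to overlap between WT and Het in any comparison. How many of all genes had separate ranges was not counted. In bulk tissue, fewer cells of a type and less RNA per cell cannot be told apart.

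**Figure D1:**
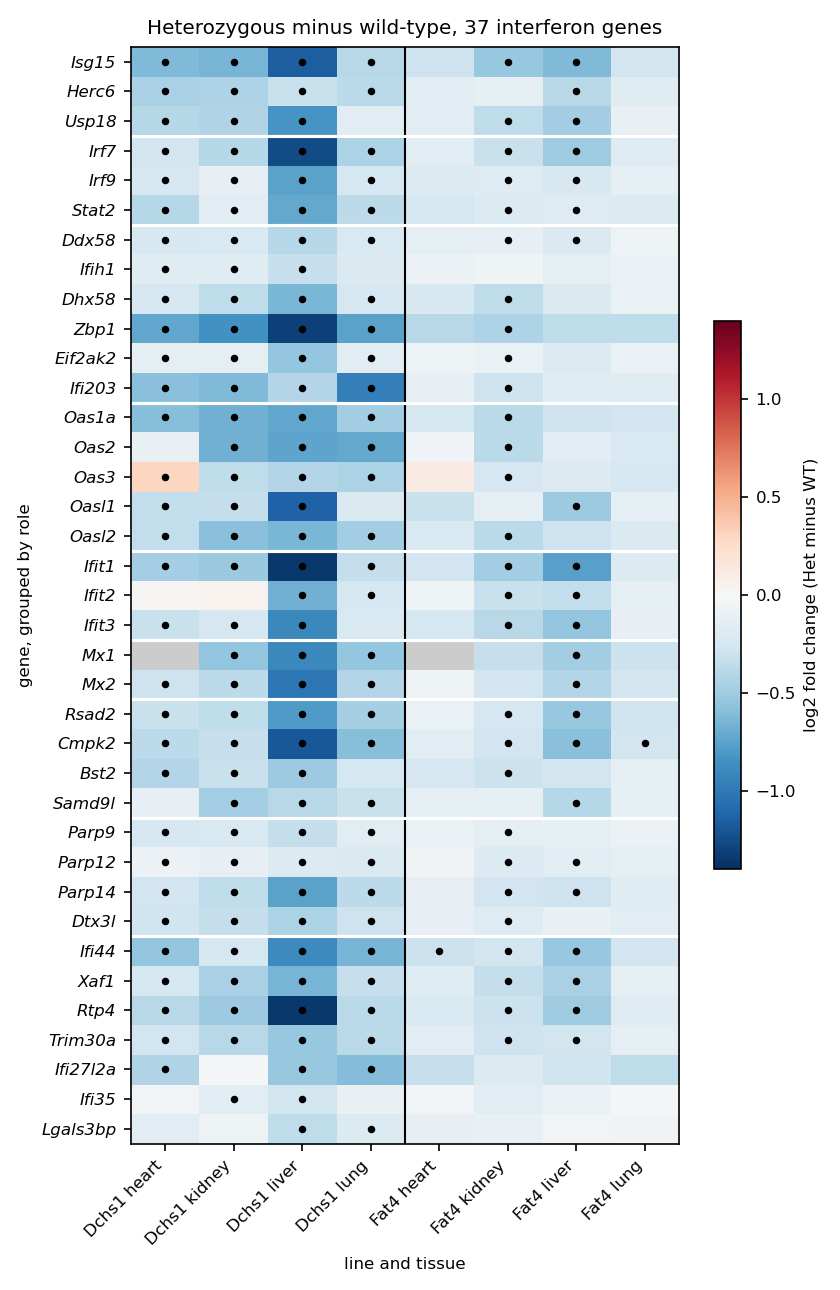
Log2 fold change (Het minus WT, colour) of the 37 genes (rows, grouped by role) in each line and tissue (columns); dots mark an adjusted p under 0.05, and grey cells Mx1 in heart, which was not tested. Nearly all cells are on the lower side, the darkest in Dchs1 liver (Rtp4 and Ifit1, -1.35), and the Fat4 heart and lung columns carry 1 dot each.

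A score for each library shows how the libraries were spread. It is the mean over the 37 genes of log2(CPM + 1) minus the WT median of that gene. Here and below, CPM are counts scaled to the library total of the genes tested, adjusted by edgeR's TMM factor. In Dchs1 liver the WT libraries ran from -1.06 to 0.54 with a median of -0.01, and the Het libraries from -1.18 to -0.18 with a median of -0.67. All 29 Het libraries were below the WT median, and 4 were below the lowest WT library. That lowest WT library stood far below the next, at -0.355. In Dchs1 kidney all 30 Het libraries were below the WT median, and 17 were below every WT library. In Dchs1 lung 30 of 30 and in Dchs1 heart 29 of 30 Het libraries were below the WT median. In Dchs1 lung, too, the lowest WT library was at -0.555 and the next at -0.17.

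Of the 30 Fat4 Het libraries of each tissue, the score was below the WT median for 24 (heart), 29 (kidney), 28 (liver) and 25 (lung). Fat4 heart WT ran from -0.28 to 0.67, and without its top library up to 0.22; Fat4 heart Het ran from -0.35 to 0.14. Fat4 lung WT ran from -0.26 to 0.57, with 0.25 as the second highest, and Het from -0.36 to 0.11. In no tissue of either line did a Het library exceed the highest WT library, and in every tissue the ranges overlapped.

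**Figure D2:**
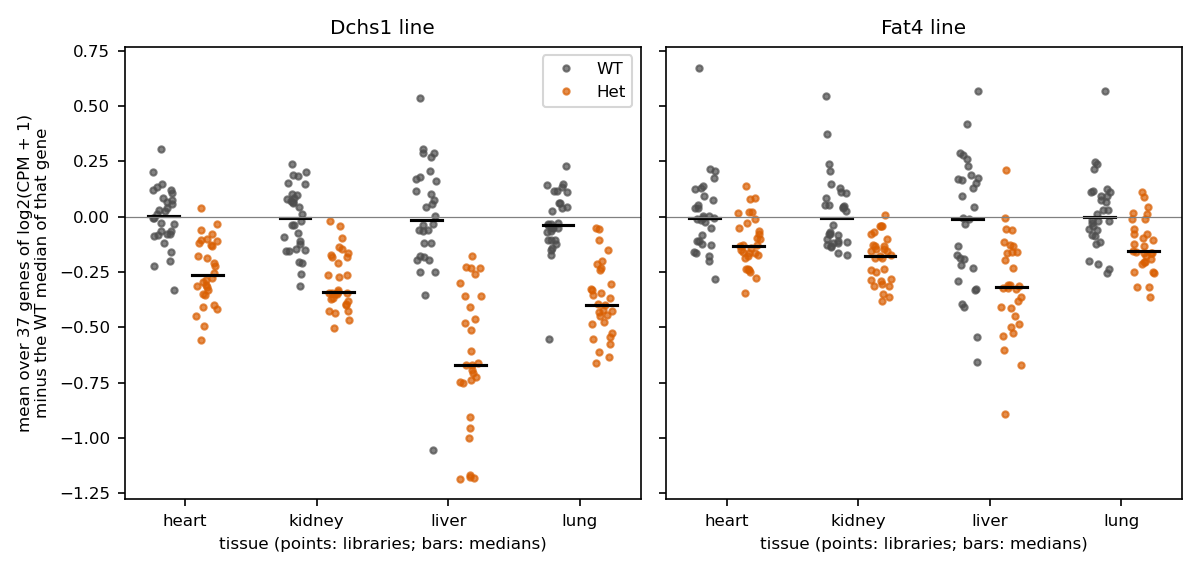
Mean over the 37 genes of log2(CPM + 1) minus the WT median (vertical axis) for each library (points) by tissue and genotype in the Dchs1 line (left) and the Fat4 line (right), with medians as bars. The Dchs1 liver Het libraries lie lowest (median -0.67), and single WT libraries stand above the rest in Fat4 heart (0.67), kidney (0.55) and lung (0.57).

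Isg15 is a ubiquitin-like protein that is secreted and attached to other proteins, Herc6 is the main ligase for that attachment in mice, and Usp18 removes it and also restrains the receptor. Isg15 ranged from 2.12 to 23.1 CPM in Dchs1 liver WT (median 12.3) and from 1.88 to 11.9 CPM in Het (median 4.85). All 29 Het libraries were below the WT median, and the ranges overlapped. The log2 difference was -1.15 (SE 0.16, adjusted p = 1.45e-08 by edgeR's quasi-likelihood test). Isg15 was also lower in Dchs1 heart (-0.62), kidney (-0.66) and lung (-0.39), and in Fat4 kidney (-0.53) and liver (-0.62). Herc6 in Dchs1 kidney was between 6.21 and 12.1 CPM in WT (median 9.93) and between 5.62 and 9.28 CPM in Het (median 7.47). All 30 Het libraries lay below the WT median, and the log2 difference was -0.43. Herc6 passed in all Dchs1 tissues and in Fat4 liver. Usp18 passed in Dchs1 heart, kidney and liver (-0.83 in liver) and in Fat4 kidney and liver.

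Irf7 amplifies interferon production, and Stat2 and Irf9 are the parts of the response factor that are specific to interferon signalling. These 3 genes were lower in all Dchs1 tissues and in Fat4 kidney and liver, and not called in Fat4 heart or lung. Of all genes, 10.4% to 25.4% were lower in the Dchs1 tissues, 7.87% in Fat4 kidney and 3.51% in Fat4 liver. Irf7 in Dchs1 liver was between 6.01 and 37.9 CPM in WT (median 21.3) and between 4.55 and 16.7 CPM in Het (median 9.22). Its log2 difference was -1.26 (SE 0.12, adjusted p = 1.59e-13), and all 29 Het libraries were below the WT median. Stat2 in the same tissue ranged from 24.3 to 72.9 CPM in WT (median 58.6) and from 22.4 to 50.3 in Het (median 36.1), a difference of -0.72 (adjusted p = 1.92e-13). Irf9 differed there by -0.75, with 14 of 29 Het libraries below every WT library. In Fat4 liver the differences were -0.50 for Irf7, -0.18 for Stat2 and -0.23 for Irf9. Irf9 in Dchs1 kidney (-0.11) was at the threshold (adjusted p = 0.0475 by edgeR), and each of the 8 alternatives run for it left it above (adjusted p from 0.0537 to 0.772).

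Ddx58 (RIG-I), Ifih1 (MDA5) and Dhx58 (LGP2) sense RNA in the cytoplasm, Zbp1 senses nucleic acids of the Z form, Eif2ak2 (PKR) stops translation on double-stranded RNA, and Ifi203 belongs to the interferon-inducible HIN-200 family. All 6 were lower in Dchs1 heart, kidney and liver (24.1%, 23.8% and 25.4% of all genes), and all except Ifih1 in Dchs1 lung (10.4%). Ifi203 had the smallest p of the group in Dchs1 heart, kidney and lung. In Dchs1 lung it was between 26.3 and 179 CPM in WT (median 87.6) and between 26.4 and 80.1 CPM in Het (median 43.7). All 30 Het libraries were below the WT median, none was below the lowest WT library, and the log2 difference was -0.95 (SE 0.11, adjusted p = 4.15e-09 by edgeR). Zbp1 in Dchs1 liver ran from 0.778 to 10.1 CPM in WT (median 5.4) and from 0.646 to 4.58 CPM in Het (median 2.14), a difference of -1.31. Zbp1 was also lower in Dchs1 heart (-0.73), kidney (-0.85) and lung (-0.75). In the Fat4 line 5 of the 6 were lower in kidney (7.87% of all genes), all except Ifih1, and in liver (3.51%) Ddx58 alone (-0.20).

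The oligoadenylate synthetases Oas1a, Oas2 and Oas3 make the messenger that activates RNase L, while Oasl1 and Oasl2 are related proteins. All 5 were lower in Dchs1 kidney and liver (23.8% and 25.4% of all genes), and 4 in lung (10.4%), where Oasl1 (-0.20) was not called. In Dchs1 liver Oasl1 was between 2.85 and 23.5 CPM in WT (median 14.8) and between 1.44 and 12.7 CPM in Het (median 6.73), a difference of -1.14. Oas2 in Dchs1 lung was between 7.19 and 20.2 CPM in WT (median 11.4) and between 3.43 and 11 CPM in Het (median 7.38), a difference of -0.72, and 30 of 30 Het libraries lay below the WT median.

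Oas3 in Dchs1 heart was the single gene called higher. It ran from 0.568 to 2.36 CPM in WT (median 1.4) and from 1.01 to 2.28 CPM in Het (median 1.8), and 20 of 30 Het libraries were above the WT median. The log2 difference was 0.30 (SE 0.10, adjusted p = 0.00746 by edgeR). The same gene was lower in the other 3 Dchs1 tissues (-0.36 in kidney, -0.41 in liver, -0.44 in lung) and in Fat4 kidney (-0.24). Its estimated counts were not whole in any library, and with a median of 0.398 TPM in Dchs1 heart WT it was under the minimum of 1 TPM for limma on TPM.

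Ifit1, Ifit2 and Ifit3 bind viral RNA and hold back its translation. Ifit1 in Dchs1 liver ran from 3.84 to 40.8 CPM in WT (median 20.1) and from 2.03 to 20.9 CPM in Het (median 7.3), a log2 difference of -1.35 (SE 0.19, adjusted p = 2.1e-08 by edgeR). In Fat4 liver the WT range was 8.05 to 53 CPM (median 25.6) and the Het range 6.13 to 30.6 CPM (median 14), a difference of -0.76 (SE 0.15, adjusted p = 0.000267) and the largest of the Fat4 line among the 37 genes. All 3 were lower in Dchs1 liver, Fat4 kidney and Fat4 liver (25.4%, 7.87% and 3.51% of all genes). Ifit2 behaved unlike the others in Dchs1 heart (0.02) and kidney (0.05), where it was not called.

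Mx1 and Mx2 are GTPases that trap viral particles, and the Mx1 of common laboratory strains is known to be defective. Mx2 in Dchs1 liver was between 3.01 and 13.6 CPM in WT (median 9.24) and between 1.48 and 8.08 CPM in Het (median 4.31), a difference of -1.01. Mx1 in Dchs1 heart WT had a median of 0.451 CPM and a highest value of 0.962 CPM, too low to test. Where tested, Mx1 was lower in Dchs1 kidney, liver and lung and in Fat4 liver.

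Rsad2 (viperin) makes a nucleotide that ends viral RNA chains from the product of Cmpk2, its neighbour in the genome, Bst2 (tetherin) holds budding virions at the membrane, and Samd9l restricts translation. Cmpk2 was called in every comparison except Fat4 heart. In Dchs1 liver it ran from 2.64 to 19.3 CPM in WT (median 11.4) and from 1.15 to 11.8 CPM in Het (median 4.97), a log2 difference of -1.19 (SE 0.17, adjusted p = 2.51e-08 by edgeR). In Fat4 kidney it had the smallest p of the 37 genes: WT ranged from 12.6 to 22.1 CPM (median 16.3), Het from 11.7 to 15.4 CPM (median 13.8), all 30 Het libraries were below the WT median, and the difference was -0.27 (adjusted p = 3.06e-05). In Fat4 lung Cmpk2 ranged from 19.2 to 49.9 CPM in WT (median 28.8) and from 18.8 to 32 CPM in Het (median 25), a difference of -0.26 (SE 0.06, adjusted p = 0.0398). Rsad2 was lower in all Dchs1 tissues (-0.79 in liver) and in Fat4 kidney (-0.24) and liver (-0.53). Samd9l had the smallest p of the group in Fat4 liver, with 12.6 to 27.8 CPM in WT (median 20.4), 7.81 to 22.6 CPM in Het (median 15.3) and a difference of -0.40 (adjusted p = 6.05e-05). Bst2 was called in 4 comparisons, with -0.51 in Dchs1 liver.

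**Figure D3:**
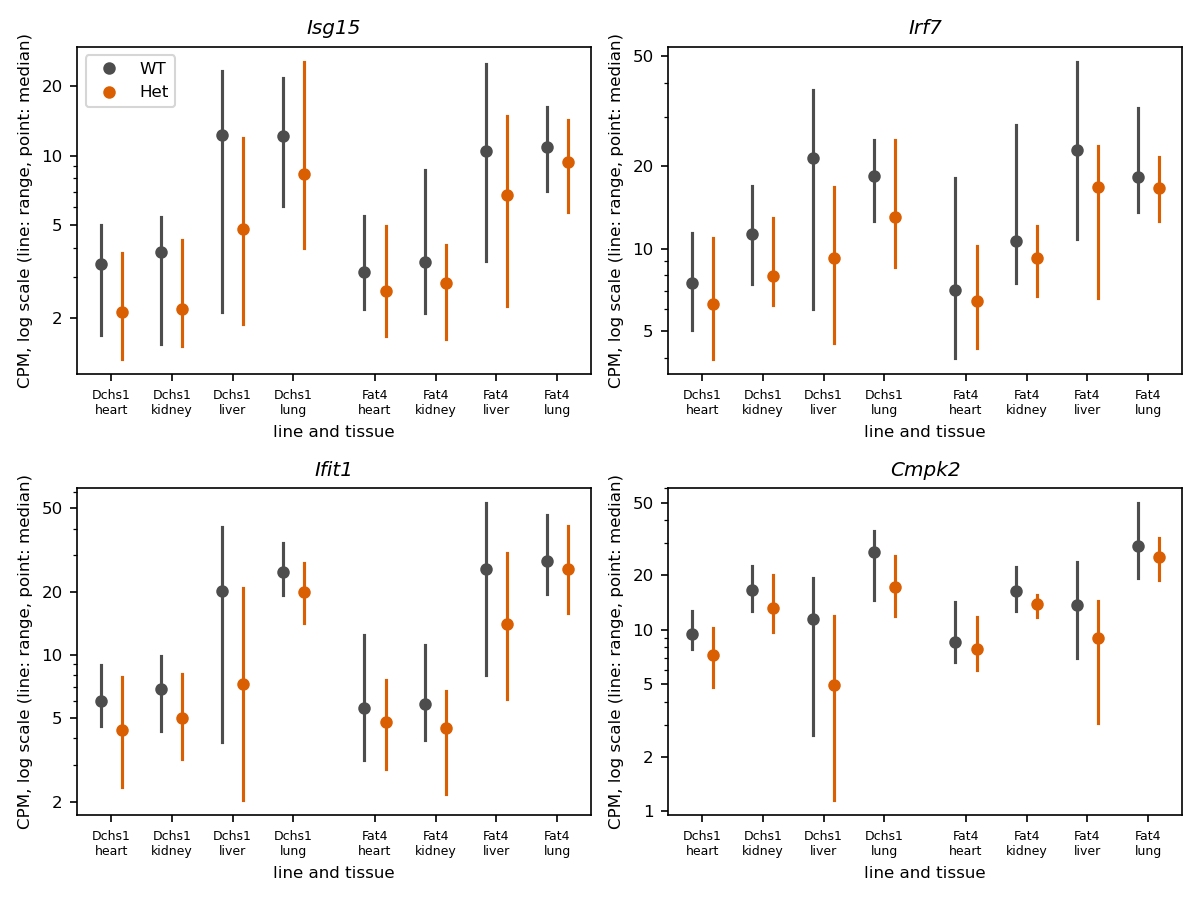
CPM on a log axis of Isg15, Irf7, Ifit1 and Cmpk2 in each line and tissue, with the range over the libraries of a group as a line and the median as a point. The Het median is below the WT median in every pair, with the widest gap in Dchs1 liver (Ifit1, 20.1 against 7.3 CPM).

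Parp9, Parp12 and Parp14 are ADP-ribosyltransferases, and Dtx3l is a ubiquitin ligase that pairs with Parp9. All 4 were lower in every Dchs1 tissue (10.4% to 25.4% of all genes) and in Fat4 kidney (7.87%). The differences were small: Parp9 and Parp12 moved by -0.08 to -0.34 in the Dchs1 line. Parp14 was the largest mover, at -0.75 in Dchs1 liver. There it ran from 20.2 to 67.2 CPM in WT (median 43.9) and from 13.8 to 39.5 CPM in Het (median 26.6), and all 29 Het libraries were below the WT median.

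Of the remaining genes, Ifi44 is an interferon-induced protein of the cytoplasm, Xaf1 promotes cell death, Trim30a is a tripartite motif protein that restrains inflammatory signalling, and Lgals3bp is a secreted glycoprotein. Ifi44 was called in every comparison except Fat4 lung. In Dchs1 lung it was between 6.2 and 18.6 CPM in WT (median 11.7) and between 4.17 and 11.6 CPM in Het (median 7.67). All 30 Het libraries lay below the WT median, the ranges overlapped, and the difference was -0.65. In Fat4 heart it ran from 2.81 to 8.87 CPM in WT (median 4.74) and from 2.97 to 6.43 CPM in Het (median 4), a difference of -0.30 (SE 0.08, adjusted p = 0.0438 by edgeR). There 26 of 30 Het libraries were below the WT median. Rtp4 in Dchs1 liver had the smallest p of the group there: 4.2 to 24.8 CPM in WT (median 16.5), 2.91 to 11 CPM in Het (median 6.4), adjusted p = 6.2e-14. Xaf1 was lower in all Dchs1 tissues and in Fat4 kidney and liver. Ifi27l2a was called in 3 comparisons, all in the Dchs1 line, and in kidney differed by -0.02 (17 of 30 Het libraries below the WT median). Ifi35 and Lgals3bp were called in Dchs1 liver (-0.26 and -0.36) and in kidney or lung of that line, respectively.

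Trim30a lies at chr7:104409025-104465193 (GRCm38.p6), 1.29 Mb from Dchs1, the targeted gene of that line. It was between 39.2 and 73.1 CPM in Dchs1 lung WT (median 60.8) and between 33.3 and 55.9 CPM in Het (median 44.1), a difference of -0.37, and it was lower in all 4 Dchs1 tissues. It was also lower in Fat4 kidney (-0.29) and liver (-0.26), where the targeted gene is on chromosome 3. Irf7 (chromosome 7, 35.5 Mb from Dchs1) and Ifi44 (chromosome 3, 113 Mb from Fat4) share a chromosome with a target. The part of position in these differences was not tested.

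The difference between the lines was tested directly as an interaction. Dchs1 heterozygotes fell further than Fat4 heterozygotes for 14 of 37 genes in liver, where 23.6% of all genes tested differed between the lines. In heart 5 of 37 differed (25.5% of all genes), in kidney 4 (33.5%) and in lung 5 (5%). All except Ifit2 in kidney were lower in the Dchs1 line. Within the longest stretch 11 differed in lung, and the share of all genes in that subset was not counted. The counts in heart and kidney were below the share of all genes. The largest liver differences were Zbp1 (-0.94 between the lines, SE 0.22, adjusted p = 0.000708), Rtp4 (-0.84) and Irf7 (-0.74). Irf9 (-0.51), Stat2 (-0.52), Mx2, Oasl1, Oas2, Cmpk2, Parp14, Dtx3l, Dhx58, Eif2ak2 and Lgals3bp made up the rest. Isg15 and Ifit1, which had the largest falls in Fat4 liver, were not among them. Ifi203 differed in heart (-0.48), kidney (-0.32) and lung (-0.79, adjusted p = 0.000137). Ifit2 in kidney was lower in the Fat4 line by 0.37 on the log2 scale (adjusted p = 8.38e-06). The lines share no libraries, and the point estimate was lower in the Dchs1 line for 33 of 36 genes (heart), 28 of 37 (kidney), 35 of 37 (liver) and 37 of 37 (lung). Across the genes, which are not independent replicates, the differences of the lines correlated with a Pearson's r of 0.81 in heart, 0.64 in kidney, 0.78 in liver and 0.76 in lung.

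**Figure D4:**
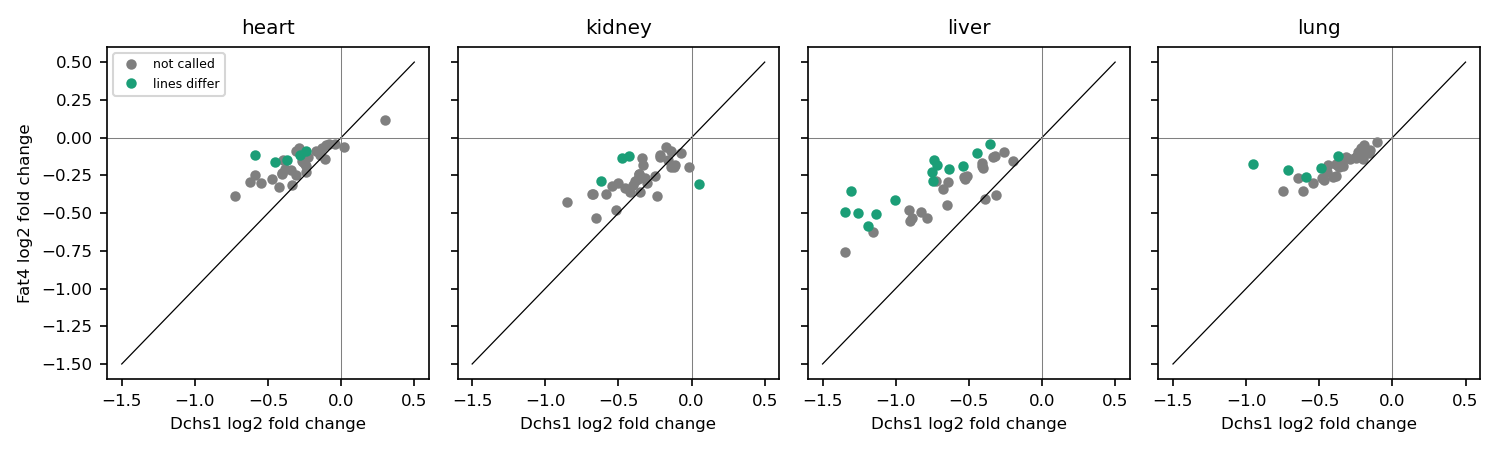
Log2 fold change (Het minus WT) of each gene in the Dchs1 line (horizontal axis) against the Fat4 line (vertical axis), by tissue, with equality as a diagonal line. Green points are genes whose effect differed between the lines (5, 4, 14 and 5 from left to right), and most points lie above the diagonal, that is, lower in the Dchs1 line.

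The effect of genotype also differed between tissues. In the Dchs1 line 22 of 37 genes differed, where 52.2% of all genes did, so the share was near the background. The smallest p belonged to Rtp4 (adjusted p = 3.44e-13), Irf9 (1.5e-12) and Irf7 (4.83e-12), by edgeR's quasi-likelihood test over 4 tissues. Rtp4 fell by 1.35 in liver and by 0.38, 0.51 and 0.38 in heart, kidney and lung. Among Fat4 libraries 4 of 37 genes differed (7.13% of all genes), Cmpk2, Ifit1, Ifit2 and Ifit3, with the largest differences in liver (Ifit1, Ifit3 and Cmpk2) or in liver and kidney (Ifit2).

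Among the other genes of the pathway, none of the type I ligands on the list, nor Ifng, was expressed highly enough to be tested in any tissue. The receptor genes moved little: Ifnar2 was not called in any comparison, and Ifnar1 was 0.10 higher in Dchs1 heart and 0.12 lower in Dchs1 liver on the log2 scale. Uba7, which activates Isg15 for conjugation, was lower in all Dchs1 tissues and in Fat4 kidney and liver. Jak1 was higher in Dchs1 heart (0.41) and liver (0.10) and in Fat4 heart (0.14). Adar, which edits double-stranded RNA, was lower in Dchs1 liver (-0.55) and lung (-0.16) and in Fat4 kidney (-0.08). Of the list as tested, 9 of 32 genes were lower and 7 higher in Dchs1 heart, close to the 24.1% and 26.1% of all genes. Lower and higher counts were 13 and 5 of 32 in Dchs1 kidney (23.8% and 23.4% of all genes), 11 and 4 of 31 in liver (25.4% and 24.3%), and 12 and 3 of 34 in lung (10.4% and 9.6%). Fat4 heart had 1 and 1 of 32 (0.628% and 0.969%), kidney 8 and 1 of 32 (7.87% and 9.21%), liver 6 and 1 of 31 (3.51% and 3.64%), and lung 0 and 0 of 34 (0.0259% and 0.11%). The medians of this list were between -0.08 and 0.03.

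Markers of immune cells were measured beside these genes. In Dchs1 heart and kidney all 3 leukocyte markers (Ptprc, Coro1a, Laptm5) were lower, by 0.16 to 0.42 and by 0.30 to 0.40 (24.1% and 23.8% of all genes). In kidney 3 of 3 tested markers of T and NK cells (-0.33 to -0.58), 2 of 2 of B cells (-0.40 to -0.62) and 2 of 6 of macrophages were lower. In heart these counts were 0 of 1, 1 of 3 and 1 of 6, and 2 of 4 endothelial markers were higher. In Dchs1 lung all 6 markers of T and NK cells were lower (-0.54 to -0.75), beside 10.4% of all genes. So were 3 of 4 of B cells, 1 of 3 of leukocytes and 1 of 6 of macrophages. The summed T and NK cell markers there ran from 13.4 to 54.6 TPM in WT (median 36.3) and 9.08 to 51.8 TPM in Het (median 23.7). Siglech, a marker of plasmacytoid dendritic cells, which are potent makers of interferon, was lower in Dchs1 lung by 0.70, 1 of 3 markers of these cells tested there (Cox6a2, which heart muscle also expresses, was higher). In Dchs1 liver, where all 37 genes fell, 25.4% of all genes were lower. There 1 of 3 leukocyte markers (Laptm5), 1 of 1 tested marker of T and NK cells (Cd4, -0.51), 1 of 2 of B cells (Cd79a) and 0 of 6 of macrophages were lower. In Fat4 kidney and liver, 0 of 3 leukocyte markers, 0 of 2 and 0 of 1 tested markers of T and NK cells, and 0 of 2 and 0 of 4 of B cells were called. Macrophage markers were called there for Adgre1 in kidney alone (-0.30), and the 4 endothelial markers were lower in Fat4 kidney (-0.11 to -0.20). In Fat4 kidney 7.87% of all genes were lower. The summed leukocyte markers were between 5.17 and 16.7 TPM in Dchs1 liver WT (median 12.4) and between 5.71 and 15.7 TPM in Het (median 10.2). Neutrophil markers stood the other way. Their summed level had a higher median in Het than in WT in all 8 comparisons, with overlapping ranges: 776 against 498 TPM in Dchs1 lung, 635 against 387 in Fat4 lung, 10.8 against 6.28 in Dchs1 kidney and 7.29 against 5.37 in Dchs1 liver. Of the 2 or 3 tested in each comparison, the calls were Retnlg in Dchs1 heart (0.98) and lung (1.24), both higher (26.1% and 9.6% of all genes). The part of cell composition in the fall of the interferon genes was not tested.

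In WT libraries the level of the genes, per transcript length as TPM, was highest in lung for 27 of 37, in liver for 8 and in kidney for 2 in both lines. By counts scaled with TMM it was highest in liver for 22 (Dchs1 line) and 23 (Fat4 line). The share of all genes highest in each tissue was not counted on either scale, so these counts are not shown to be particular to the group. Bst2 was the most abundant in liver, at a median of 131.9 TPM (38.7 to 167) in the Dchs1 line, beside 112.5 in lung, 17.9 in kidney and 16.5 in heart. Ifi27l2a was at 78.5 TPM in lung and 21.4 in heart, where it was the highest of the group. Samd9l led in kidney, at 27.6 TPM. Oas3 was the lowest in lung (1.395 TPM) and liver (0.466 TPM), and Mx1 in heart (0.239 TPM) and kidney (0.295 TPM). Liver was the top tissue of Bst2, Isg15 (in the Dchs1 line), Stat2 (in the Fat4 line), Irf7, Dhx58, Oasl1, Mx2, Parp9 and Dtx3l, and kidney of Ifi44 and Rsad2. The median of the 37 medians in the Fat4 line was 4.91 TPM in heart, 6.52 in kidney, 12.1 in liver and 21.9 in lung, and in the Dchs1 line 4.85, 5.80, 10.04 and 21.7 TPM.

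The order of tissues depended on the scaling. Counts scaled by TMM across the tissues put 22 genes of the Dchs1 line highest in liver, 8 in lung, 4 in kidney and 3 in heart, and 23, 7, 4 and 3 in the Fat4 line. Relative to heart, the median gene of the group was 2.39 higher in lung on the log2 scale by TPM in the Dchs1 line and 0.76 higher by TMM, and in liver 1.49 and 1.38 higher. Going down the TPM order, the test on TMM-scaled counts found the top tissue above the next for 16 of 37 genes in the Dchs1 line (55.9% of all genes), the next above the third for 28 (63.9%) and the third above the last for 20 (71.7%). In the Fat4 line the same steps were called for 15 (57.7%), 29 (63.1%) and 18 (72.3%). Of the steps not called, 19, 6 and 13 in the Dchs1 line and 19, 7 and 14 in the Fat4 line stood in the opposite order by TMM, and the others did not differ beyond their spread.

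**Figure D5:**
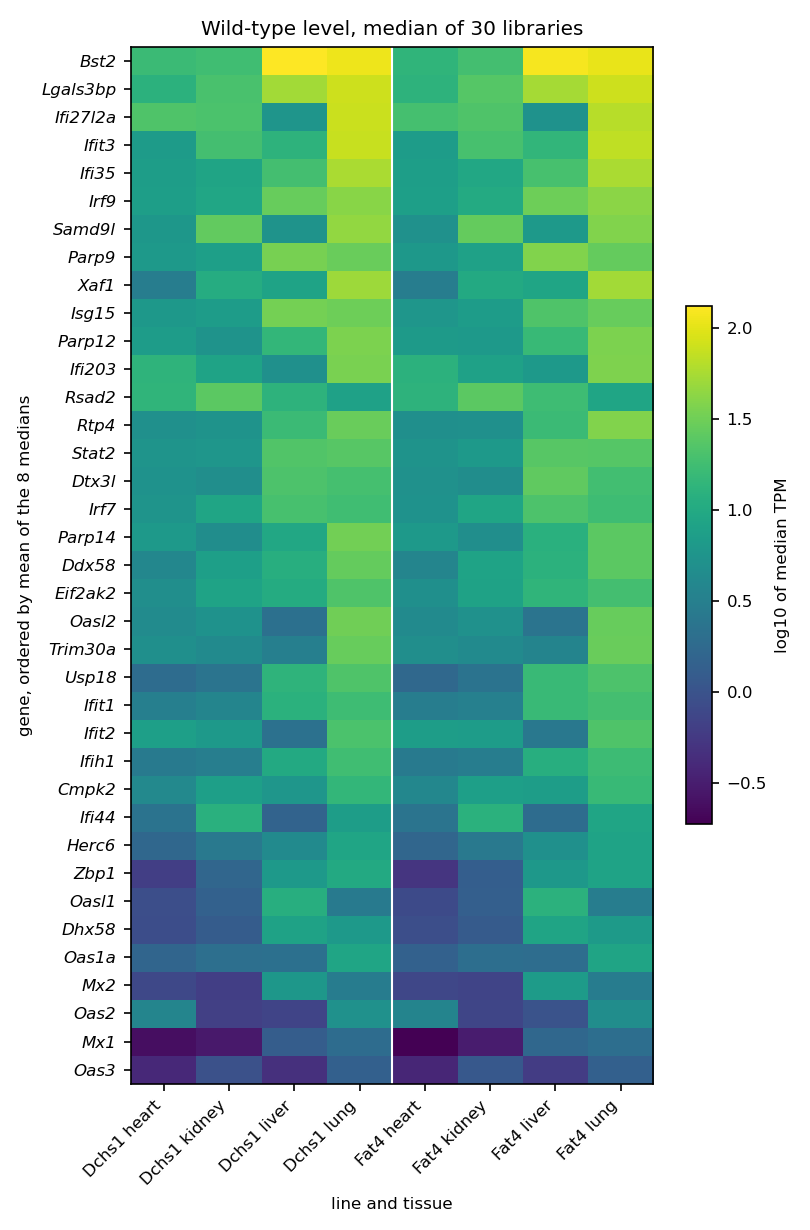
Log10 of the median TPM over the 30 WT libraries (colour) for each gene (rows, ordered by mean) in each line and tissue (columns). Bst2 is the brightest row (131.9 TPM in Dchs1 liver), the 2 lung columns are the brightest, and the lines show near-equal patterns.

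The genes varied together among libraries of the same group. The median Spearman correlation between pairs of the genes ran from 0.26 in Dchs1 kidney Het to 0.68 in Fat4 liver WT, while that of all genes was between -0.00246 and 0.00111, with no test since the genes of a library share its depth and composition. Variation between libraries was also above the rest: the median biological coefficient of variation was 12.8% to 27.2% for these genes and 9.36% to 19.7% for all genes, and was higher for these genes in each of the 16 groups. Liver held the widest spread, with 27.2% in Dchs1 liver Het against 16.2% for all genes. Ifit1 was the most variable in Dchs1 liver, at 39% in WT and 55.3% in Het.

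Estimated counts are not whole where reads are divided among sequences. For 15 of the 37 genes the estimate was not whole in over 50% of libraries, namely Ifit1, Ifit3, Oas1a, Oas3, Oasl2, Xaf1, Trim30a, Eif2ak2, Ifi203, Irf9, Ddx58, Dtx3l, Ifi27l2a, Mx1 and Mx2, and the single values of these genes are therefore uncertain. Of the 18 genes that were whole in every library, Isg15, Irf7, Stat2, Cmpk2, Rtp4, Zbp1 and Parp14 were among those lower in all 4 Dchs1 tissues. Others of the 18 were not called in every Dchs1 tissue. Ifit2 was not called in Dchs1 heart or kidney, and Usp18 and Ifih1 were not called in Dchs1 lung. Ifi35 and Lgals3bp were called in 2 of 8 comparisons each. Of all genes tested, 24.1% were lower in Dchs1 heart, 23.8% in kidney, 25.4% in liver and 10.4% in lung.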

How the data were processed

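Messenger RNA was measured in 479 libraries of 16 groups. Gene-level estimated counts and TPM values, as the authors deposited them in separate tables per line, were the starting point. Per the submitters' processing notes, bcl2fastq 2.17, FastQC and the GRCm38 build were used; the sources used here name no aligner or counter. Of the estimated counts the authors deposited, 15.5% (Dchs1) and 15.7% (Fat4) were not whole, and all were rounded. Of 24475 identifiers, 24375 had a symbol in the RefSeq table and 100 had none.

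Each tissue of a line was fitted separately in R 4.3.3 with edgeR 4.0.16: filterByExpr (minimum count 10, minimum total 15), TMM scaling and the quasi-likelihood test, with Benjamini-Hochberg adjustment over all genes tested and a threshold of 0.05. Lines and tissues were compared by interaction terms. WT tissues were compared in pairs on counts, and levels are given as TPM. Alternatives used DESeq2 1.42.0, limma 3.58.1 on log2(TPM + 1) or log2(TPM + 0.1), no filter, other size factors, and subsets of libraries. The labels give no batch, so stretches of consecutive library numbers stood in for it. The scripts were checked on simulated data. No pair of libraries was identical.

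The 37 genes, the other pathway genes and the marker lists were chosen with earlier results of these data known. Full statistics were given to at most the 6 genes with the smallest p in a comparison and the largest rise and fall, and values per group to genes called in most comparisons, to the highest and lowest by WT TPM, to those within 10 Mb of the targeted gene and to those called against the majority. Depth ran from 10720364 to 32282525 reads per library. A result for 1 gene of the pathway list is not reported here.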

Additional observations from a re-analysis of the deposited data

Results flagged for a closer look

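The effect of genotype differed between the lines, by the interaction test in edgeR, for 5 of the 37 genes in heart (25.5% of all genes tested), 4 in kidney (33.5%), 14 in liver (23.6%) and 5 in lung (5%). It differed between the 4 tissues for 22 of 37 genes of Dchs1 mice (52.2% of all genes) and for 4 of Fat4 mice (7.13%).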

How the results depend on the processing

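No called Het minus WT difference reversed under any alternative run, but the tissue order in WT turned with the scaling (27 genes highest in lung by TPM, 22 and 23 highest in liver by TMM). The count of higher genes in Dchs1 heart was 0 by limma on log2(TPM + 1) and 0 on log2(TPM + 0.1), where Oas3 was under the TPM minimum, and in Dchs1 kidney it was 1 by both (Ifit2). The 1 lower gene of Fat4 heart became 2 by DESeq2 (0.996% of all genes lower) and 2 within the longest stretch of library numbers (0.71%). The count was 0 without the filter, by both limma fits and without the single highest library. The 1 lower gene of Fat4 lung became 3 by DESeq2 (0.0927% of all genes). It became 0 without outlying libraries or without the single highest library, and Ifi27l2a in place of Cmpk2 by both limma fits. Genes differing between the lines in lung were 11 within the longest stretch, where the share of all genes was not counted. Steps between neighbouring WT tissues called in the Fat4 line were 96 by limma on log2(TPM + 1), against 62. The steps were ordered by median TPM, the scale that limma tested, while the main test used TMM-scaled counts. The part of this in the count was not tested. Leaving out single highest or lowest libraries was chosen after seeing the data. The stretch was not fitted as a covariate in Fat4 heart and liver, where 1 stretch holds both genotypes, nor in Fat4 lung, which has 1 stretch. No paired analysis was possible because the library numbers are unique to a library. Mx1 was not tested in heart, where its level was low (WT median 0.239 TPM in the Dchs1 line, beside 1.893 TPM in lung).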
